A study of Mus musculus with 2 samples.

Results

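The transcripts described here are those of the mitochondrial genome, the small circular DNA that every mitochondrion keeps apart from the nucleus. They were taken as all rows of the deposited table whose Ensembl gene ID maps to a symbol beginning with mt-. This gave 37 genes of the 41592 in the table, made up of 13 protein genes, 2 ribosomal RNA genes and 22 transfer RNA genes. Only 16 of the 37 held any read, and 15 averaged 1 FPKM or more over the libraries, where FPKM is a fragment count scaled to gene length and library total. Genes above that floor are called measured below.

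RNA-seq was run on CD4+ T cells of C57BL/6 mice aged 6 to 8 weeks, collected from spleen and lymph nodes, enriched by magnetic selection and sorted, mostly to over 97% purity. All cells carried the genotype Foxp3 dCNS1-Cre-R26-YFP, in which Cre is driven by Foxp3 regulatory DNA without its CNS1 element and switches on a YFP reporter at the Rosa26 locus, so that YFP marks present or past Cre activity. Both populations were YFP-positive and differed in Thy1.1 staining. They are written Thy1.1- and Thy1.1+ cells, and each gave 1 library. The stated aim was a comparison of thymus-derived regulatory T cells with exFoxp3 precursor cells, but the design text names the same marker pair for both, so only the markers are used as names. The number of animals behind each library is not given in the sources used here. With 1 library per population no difference has a replicate check and no p-value is given. All ratios are Thy1.1- over Thy1.1+ cells, differences have the same direction, and the 95% interval in brackets covers counting error only. For the nuclear gene lists and the shares over all genes, the reads behind the intervals are estimates that depend on an assumed gene length.

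Transcripts of the sorted lineage were present in both libraries. Foxp3, the transcription factor of regulatory T cells, stood at 158 FPKM in Thy1.1- cells and 237 FPKM in Thy1.1+ cells, and Cd3e and Cd4, parts of the T cell receptor complex and its co-receptor, stood between 248 and 471 FPKM. The 6 T cell markers summed to 2456 FPKM in Thy1.1- cells and 1946 FPKM in Thy1.1+ cells, against 13.99 and 8.85 FPKM for 5 B cell markers and 69.2 and 51.1 FPKM for 6 myeloid markers. The 5 erythroid markers summed to 2.12 and 5.99 FPKM, the 3 platelet markers to 8.45 and 10.2 FPKM, the 2 CD8 markers to 4.78 and 4.49 FPKM, the 3 natural killer cell markers to 2.22 and 0.709 FPKM and the 4 plasma cell markers to 160.2 and 170 FPKM, and no marker of any list was at 0 in both libraries. The 5 regulatory T cell markers summed to 1830 FPKM in Thy1.1- cells and 2024 FPKM in Thy1.1+ cells. By the 2-fold rule used below, 1 regulatory T cell and 1 erythroid marker were lower in Thy1.1- cells, beside 1.15% of all measured genes. Higher in Thy1.1- cells were 1 plasma cell, 1 natural killer cell and 1 myeloid marker, beside 1.93%. The part of these markers in the differences below was not tested.

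As background, the mitochondrial genome is transcribed along nearly its whole length from both of its strands, and the long precursor RNAs are cut, mostly at the tRNAs that lie between the other genes, into separate messenger, ribosomal and transfer RNAs. Its protein genes all encode core subunits of the respiratory chain and ATP synthase, which activated and regulatory T cells draw on for energy. All other subunits, and the proteins that transcribe the mitochondrial genome and translate its messenger RNAs, come from nuclear genes. Copies of stretches of mitochondrial DNA have also been inserted into nuclear chromosomes, where they are annotated as pseudogenes.

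The mitochondrial transcripts took 281822 of 18536339 counted reads in Thy1.1- cells, 1.52% (exact Clopper-Pearson 95% interval 1.51 to 1.53). In Thy1.1+ cells they took 302716 of 18600581 reads, 1.63% (1.62 to 1.63). The share was thus lower in Thy1.1- cells by more than counting error. Measured per length, the summed FPKM of the 37 genes was 12083 in Thy1.1- cells and 13023 in Thy1.1+ cells, 2.01% and 2.19% of all FPKM. Nearly all of it came from protein genes, with 280558 and 301459 reads. In bulk RNA, fewer mitochondria per cell, less RNA per mitochondrion and a shift in nuclear transcripts cannot be told apart.

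No mitochondrial gene differed by 2-fold on the log2(FPKM + 1) scale, with 0 of the 15 measured genes higher and 0 lower. Across all 12820 measured genes, 1.93% were 2-fold higher, 1.15% were 2-fold lower and 3.08% passed in either direction. At a 1.5-fold rule mt-Co2 alone passed, as lower, where 3.85% of all measured genes did, and 0 were higher beside 5.81%. All 12 measured protein genes lay within 2-fold, 10 of them below 0 and 2 above, with 6 and 6 after the upper quartiles of the libraries were brought level. Their median log2 difference was -0.24 with the deposited values, beside 0.03 for all genes, of which 55.1% were above 0 and 44.9% below. The upper quartile multiplies every value of the Thy1.1- library by 1.19, so that genes a little below 0 turn sign by construction.

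The protein genes fell into a high and a very low set that the study's populations shared. The 8 high genes stood between 231 and 4523 FPKM, and the 5 low genes between 0 and 5.89 FPKM. The order of the 8 high genes was the same in both libraries.

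**Figure D1:**
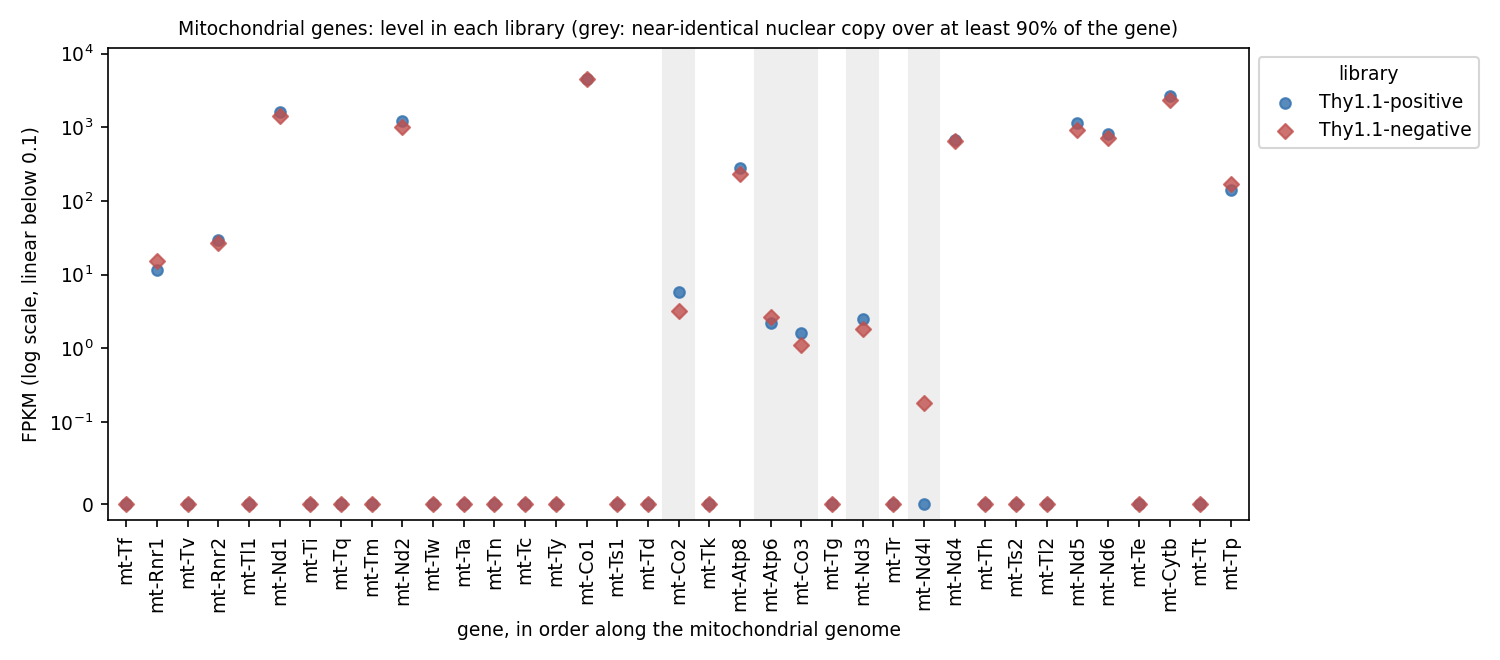
FPKM of the 37 mitochondrial genes in Thy1.1+ (blue circles) and Thy1.1- (red diamonds) cells, in their order along the mitochondrial genome, on an axis that is logarithmic above 0.1 and linear below. The 5 protein genes on grey, which lie inside near-identical nuclear copies over at least 90% of their length, stand at or below 5.89 FPKM in both libraries, and 21 tRNA genes stand at 0.

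The highest was mt-Co1, which encodes the catalytic subunit of complex IV, cytochrome c oxidase. It stood at 4523 FPKM in Thy1.1- cells and 4472 FPKM in Thy1.1+ cells, and ranked 2 of all genes in each. From 129527 and 128510 reads its ratio was 1.01 (1.004 to 1.02), so the libraries were nearly level. Its share of all mitochondrial reads was larger in Thy1.1- cells, at 45.96% against 42.5%. The sign of its small difference turned when the median gene was set to 0 or the 100 highest genes were left out of the sum.

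The next was mt-Cytb, cytochrome b, the only mitochondrially encoded subunit of complex III. It stood at 2372 FPKM in Thy1.1- cells and 2642 FPKM in Thy1.1+ cells, from 50305 and 56227 reads. Its ratio of 0.898 (0.887 to 0.909) was below that of mt-Co1, with intervals that do not overlap, and the sign of its difference turned with the upper quartile.

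Complex I, NADH dehydrogenase, takes 7 of its subunits from this genome, and all 6 measured ones had lower deposited values in Thy1.1- cells, 3 of which, mt-Nd1, mt-Nd4 and mt-Nd6, turned sign with the upper quartile. mt-Nd1, a membrane subunit next to the quinone site, stood at 1438 FPKM in Thy1.1- cells and 1589.6 FPKM in Thy1.1+ cells, a ratio of 0.905 (0.8896 to 0.9202). mt-Nd2, mt-Nd4 and mt-Nd5 encode the membrane subunits related to antiporters that take part in proton pumping. mt-Nd2 stood at 1009 and 1219 FPKM, a ratio of 0.828 (0.812 to 0.844). mt-Nd5 stood at 921 and 1133 FPKM, with the lowest ratio of the 8 high genes, 0.813 (0.801 to 0.825). mt-Nd4 stood at 661 and 679 FPKM, a ratio of 0.974 (0.953 to 0.994). The 3 antiporter-like subunits therefore differed in their deposited ratios. The interval of mt-Nd4 lies above those of mt-Nd2 and mt-Nd5, while the intervals of mt-Nd2 and mt-Nd5 overlap. Of the 3, only mt-Nd4 lies partly inside a near-identical nuclear copy, described below, and the part of that copy in its ratio was not tested.

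mt-Nd6 is the only protein gene transcribed from the other strand. The remaining 12 protein genes, with both rRNAs and 14 tRNAs, lie on the transcript made from the heavy strand, and mt-Nd6 with 8 tRNAs on the transcript made from the light strand. mt-Nd6 stood at 707 FPKM in Thy1.1- cells and 813 FPKM in Thy1.1+ cells, from 6799 and 7853 reads, a ratio of 0.869 (0.841 to 0.898). That is between the ratios of its neighbours mt-Nd5 and mt-Cytb, and its interval overlaps with that of mt-Cytb but not with that of mt-Nd5. mt-Nd6 shares 14 bases with mt-Nd5 on the opposite strand. Whether reads were counted by strand is not given in the sources used here, so reads of the opposite transcript cannot be told apart from its own.

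mt-Atp8, a small subunit of complex V, ATP synthase, was the lowest of the high set at 231 FPKM in Thy1.1- cells and 279 FPKM in Thy1.1+ cells. From 873 and 1058 reads its ratio was 0.828 (0.756 to 0.906). It shares 43 of its 204 bases with mt-Atp6 on the same strand, so its count depends on how reads in the overlap were assigned.

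Genes cut from the same heavy-strand precursor thus differed in their ratios by more than counting error. The high genes nearest to 1, mt-Co1 and mt-Nd4, are those that lie partly inside near-identical nuclear copies, described below. The 6 high genes without such a copy had ratios from 0.813 to 0.905. Among these 6, the intervals of mt-Nd5 and mt-Cytb do not overlap. The part of shared sequence in these ratios was not tested. Of the 7 genes with at least 5000 reads in both libraries, a floor set with the counts known, 6 had an interval below 1 and mt-Co1 had its interval above 1. Among all 1289 measured genes with that many reads, 46.7% had an interval below 1 and 38.9% above 1, so at this depth small differences leave the counting interval for most genes. Of all 15 measured mitochondrial genes, 9 had an interval below 1 and 2 above 1, where 20.8% and 29.8% of 12530 measured genes with recovered reads did.

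**Figure D2:**
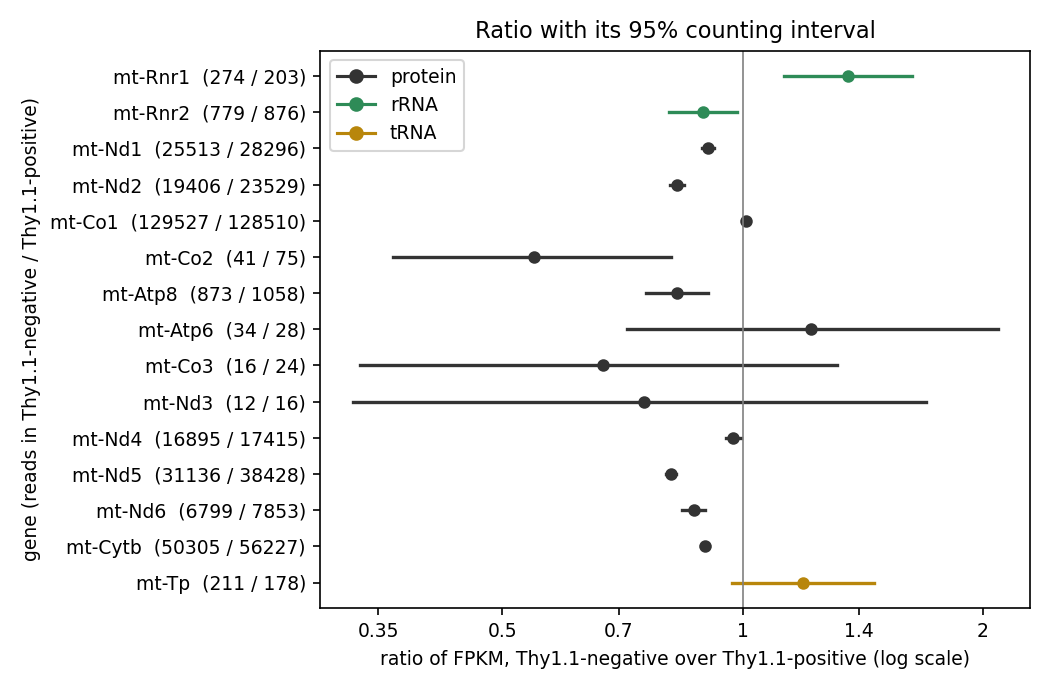
Ratio of FPKM, Thy1.1- over Thy1.1+ cells, on a log axis for the 15 measured genes in genome order; bars are 95% counting intervals and the numbers beside each name are reads in Thy1.1- and Thy1.1+ cells. mt-Co1 lies at 1.01, mt-Nd5 at 0.813 and mt-Rnr1 at 1.35, and the 4 genes with the fewest reads have the widest bars.

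The 5 low protein genes were mt-Co2, mt-Co3, mt-Atp6, mt-Nd3 and mt-Nd4l. mt-Co2, the subunit of complex IV that takes electrons from cytochrome c, held 41 reads in Thy1.1- cells and 75 reads in Thy1.1+ cells, at 3.23 and 5.89 FPKM, a ratio of 0.549 (0.365 to 0.813). mt-Co3, a structural subunit of the same complex, held 16 and 24 reads, a ratio of 0.669 (0.332 to 1.31). Both belong to the same enzyme as mt-Co1, which held 129527 and 128510 reads.

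mt-Atp6, the subunit of ATP synthase that forms its proton channel, held 34 reads in Thy1.1- cells and 28 reads in Thy1.1+ cells, a ratio of 1.22 (0.717 to 2.09). mt-Nd3, a complex I subunit, held 12 and 16 reads, a ratio of 0.753 (0.325 to 1.696). mt-Nd4l, the smallest complex I subunit of this genome, held 1 read in Thy1.1- cells and 0 in Thy1.1+ cells. For mt-Nd4l no ratio is given, since both counts are at or under 3 reads. Except for mt-Co2, the intervals of these genes include 1, so no difference between the libraries was detectable at their depth.

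All 5 low genes lie almost wholly inside nuclear copies of near-identical sequence. Transcripts of the GENCODE M21 annotation were aligned to the mitochondrial genes, keeping matches of at least 100 bases and at least 95% identity. mt-Co2 matched the pseudogene Gm28661 on chromosome 1 over 681 of its 684 bases, mt-Atp6 matched Gm10925 over 678 of 681, mt-Co3 matched Gm28437 over 783 of 784 and mt-Nd4l matched Gm10222 over 294 of 297, each with 0 mismatches. mt-Nd3 matched Gm28438 over 345 of 348 bases with 1 mismatch. These 5 pseudogenes are all annotated on chromosome 1. A read that covers no differing base cannot be assigned by its sequence to the mitochondrial or the nuclear copy, so the levels of these 5 genes are uncertain.

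The sequences below show how little separates the copies. Capitals mark the bases that differ within each set, written 5′ to 3′ in the sense of the gene, from the GENCODE M21 transcripts on GRCm38. The first pair holds the single difference between mt-Nd3 and its copy, T3C, counted from 1 at the 5′ end of mt-Nd3 with the mitochondrial base first. The second pair holds the single difference in the aligned part of mt-Co1 and Gm29216, A1066T. The last set shows mt-Co2 with its identical copy on chromosome 1 and a more diverged copy, Gm13341, on chromosome 2. It is a gap-free stretch of 60 bases in which mt-Co2 and Gm13341 differ most, at 6 positions. Their alignment also holds 12 gap bases, and stretches with a gap were left out of the choice.
mt-Nd3: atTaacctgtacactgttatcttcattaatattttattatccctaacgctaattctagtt
Gm28438: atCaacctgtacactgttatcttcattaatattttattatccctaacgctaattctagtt
mt-Co1: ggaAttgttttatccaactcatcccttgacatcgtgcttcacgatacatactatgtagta
Gm29216: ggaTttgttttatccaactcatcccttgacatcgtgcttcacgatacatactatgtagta
mt-Co2: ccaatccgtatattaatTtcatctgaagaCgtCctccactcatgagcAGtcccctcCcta
Gm28661: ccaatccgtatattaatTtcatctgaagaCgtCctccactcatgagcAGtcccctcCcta
Gm13341: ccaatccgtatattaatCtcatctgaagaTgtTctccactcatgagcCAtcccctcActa

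The nuclear copies were themselves low. The 4 copies without a mismatch that cover mt-Co2, mt-Atp6, mt-Co3 and mt-Nd4l stood between 0.207 and 0.914 FPKM, from 3 to 11 reads. Gm28438, the copy of mt-Nd3 with 1 mismatch, stood higher than mt-Nd3 itself, at 6.88 FPKM in Thy1.1- cells and 11.5 FPKM in Thy1.1+ cells. The reads of the 5 low genes and their copies together were thus few beside those of their neighbours on the mitochondrial genome.

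High genes were matched over a smaller part of their length or by more diverged copies. mt-Nd4 matched Gm28439 on chromosome 1 with 0 mismatches over 876 of its 1378 bases, and mt-Co1 matched Gm29216 on the same chromosome over 483 of its 1545 bases. mt-Co1 was also matched over its whole length by Gm13340 on chromosome 2, at 97.6% identity with 37 mismatches. mt-Nd2 and mt-Nd5 were matched in part, at 96.7% and 95.2% identity. For mt-Nd1, mt-Nd6, mt-Cytb and mt-Atp8 and both rRNAs no annotated transcript passed these limits. The 43 bases that mt-Atp8 shares with mt-Atp6 lie in the part matched by Gm10925, but are fewer than the 100 required. mt-Atp8 lies between mt-Co2 and mt-Atp6, both of which have copies on chromosome 1. Whether chromosome 1 holds more of mt-Atp8 outside annotated transcripts was not examined. The tRNA genes, of 59 to 75 bases, are shorter than that limit, so none of them could pass and their copies were not examined. The alignment covers annotated transcripts only, and the part that shared sequence plays in the levels was not tested, since the treatment of reads with several matches is not given in the sources used here.

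**Figure D3:**
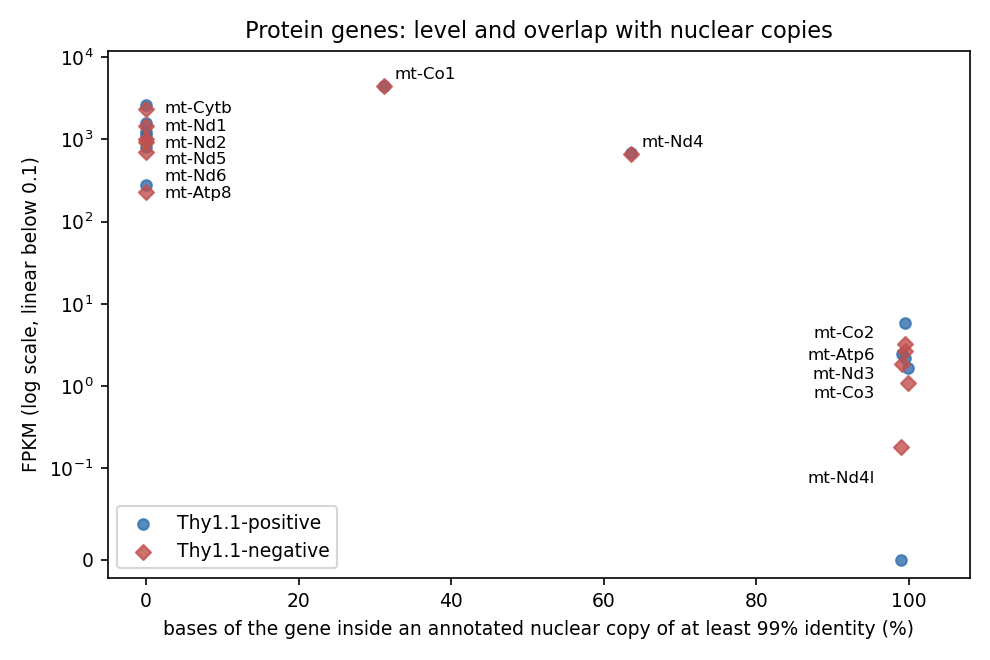
FPKM of the 13 protein genes in Thy1.1+ (blue circles) and Thy1.1- (red diamonds) cells, on an axis logarithmic above 0.1, against the percentage of the gene's bases inside an annotated nuclear copy of at least 99% identity. Genes at 0%, mt-Co1 at 31.3% and mt-Nd4 at 63.6% stand at 231 FPKM or more, and the 5 genes at 98.99% or more stand at 5.89 FPKM or less. Matches under 100 bases are not counted, so mt-Atp8 is drawn at 0% although 43 of its bases, shared with mt-Atp6, lie inside Gm10925. Nuclear sequence outside annotated transcripts was not searched, for mt-Atp8 or any other gene.

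The ribosomal RNAs of the mitochondrion were scarce in both libraries. mt-Rnr1, the RNA of the small ribosomal subunit, stood at 15.5 FPKM in Thy1.1- cells and 11.4 FPKM in Thy1.1+ cells. From 274 and 203 reads its ratio was 1.35 (1.13 to 1.63), above 1. mt-Rnr2, the RNA of the large subunit, stood at 26.6 and 29.8 FPKM, from 779 and 876 reads, a ratio of 0.892 (0.809 to 0.984). The rRNAs come from the same precursor, and their intervals do not overlap. The sign of mt-Rnr2 turned with the upper quartile. Together they made up 1053 and 1079 reads, and whether rRNA was removed or polyadenylated RNA selected before sequencing is not given in the sources used here.

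Of the 22 tRNA genes, 21 held 0 reads in both libraries. By counting error alone a count of 0 allows up to 3 reads, which for these genes of 59 to 75 bases is a level between 2.15 and 2.74 FPKM. How reads that reach past such short genes into their neighbours were counted is not given in the sources used here. The counts of 0 therefore set no bound on the tRNAs in the cells. The exception was mt-Tp, the tRNA for proline, with 211 reads in Thy1.1- cells and 178 reads in Thy1.1+ cells. At 67 bases these reads correspond to 169.9 and 143 FPKM, values raised by the short length. The ratio was 1.19 (0.9698 to 1.46), an interval that includes 1. mt-Tp is a light-strand transcript and lies last in the gene order, next to the noncoding control region. Reads of the finished tRNA cannot be told apart here from those of a longer precursor or of the opposite strand. Its sequence is shown as that of the only tRNA gene with reads.
mt-Tp: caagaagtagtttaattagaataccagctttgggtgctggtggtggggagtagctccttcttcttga

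Nuclear genes for the same enzymes had median differences of the other sign with the deposited values. Of 76 nuclear genes of the respiratory chain and ATP synthase, 66 (86.8%) were above 0 and 10 below in Thy1.1- cells, where 55.1% of all measured genes were above 0, with a median of 0.17 and 0 past 2-fold in either direction. In complex I, 32 of 37 nuclear genes were above 0, beside 0 of 6 mitochondrial ones. In complex III, 8 of 9 nuclear genes were above 0 and mt-Cytb was below. In complex IV, 10 of 11 nuclear genes were above 0, beside 1 of 3 mitochondrial ones, mt-Co1 at 0.02, with mt-Co2 at -0.70 and mt-Co3 at -0.33. All 4 genes of complex II, which has no mitochondrial subunit, were above 0. In complex V, 12 of 15 nuclear genes were above 0, beside mt-Atp8 at -0.27 and mt-Atp6 at 0.20. These mitochondrial counts include mt-Co2, mt-Co3, mt-Atp6 and mt-Nd3, low genes of uncertain level with at most 75 reads per library. The intervals of mt-Co3, mt-Atp6 and mt-Nd3 include 1, and in complex IV the only high gene, mt-Co1, was nearly level. Of the 8 high genes alone, 1 was above 0 and 7 below, with a median of -0.18. After levelling the upper quartiles the medians were 0.42 for the nuclear and 0.02 for the mitochondrial genes, beside 0.26 for all genes.

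The nuclear genes with the largest differences were Uqcr10, a small subunit of complex III, and Atp5f1, a subunit of the stator of ATP synthase. Uqcr10 stood at 70.6 FPKM in Thy1.1- cells and 48.3 FPKM in Thy1.1+ cells, a ratio of 1.46 (1.28 to 1.66), and Atp5f1 at 86.4 and 62.3 FPKM, a ratio of 1.39 (1.34 to 1.44). The smallest were Ndufa5, an accessory subunit of complex I, with a ratio of 0.876 (0.749 to 1.02), and Atp5d, a subunit of the central stalk of ATP synthase, with a ratio of 0.921 (0.877 to 0.968). The summed FPKM of the 76 nuclear genes was 6456 in Thy1.1- cells and 5810.3 FPKM in Thy1.1+ cells, so the nuclear sum was higher where the mitochondrial sum of 12083 against 13023 FPKM was lower.

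**Figure D4:**
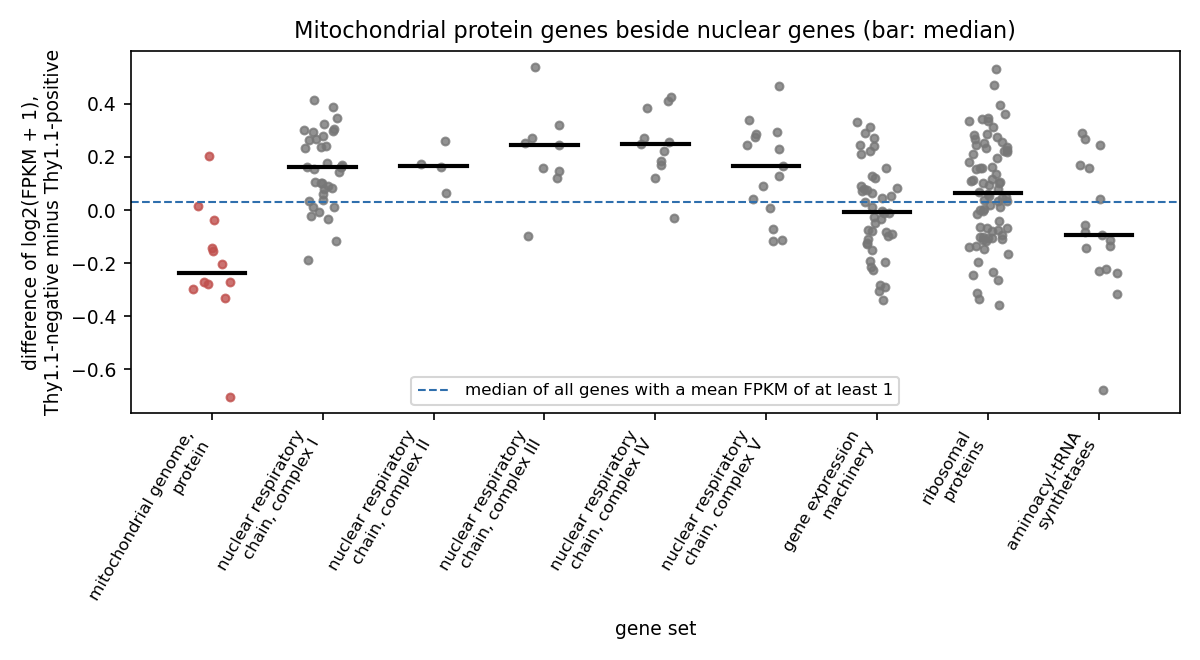
Difference of log2(FPKM + 1), Thy1.1- minus Thy1.1+ cells, for measured genes; each point is 1 gene, black bars are medians and the dashed line is the median of all genes, 0.03. The bar of the mitochondrial protein genes lies at -0.24 and the nuclear genes of the 5 complexes together have a median of 0.17.

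The list of mitochondrial gene expression genes held 45 nuclear genes: 17 for transcription and DNA upkeep, 21 for RNA processing and stability, and 7 regulators in the nucleus. Of the 45, 44 were measured, and 0 of these passed 2-fold. With the deposited values 21 (47.7%) were above 0 and 23 below, beside 55.1% above 0 among all measured genes. Their median was -0.01 with the deposited values and 0.22 with the upper quartile, beside 0.03 and 0.26 for all genes. Polrmt, the mitochondrial RNA polymerase, stood at 15.1 FPKM in Thy1.1- cells and 14.5 FPKM in Thy1.1+ cells, a ratio of 1.05 (0.927 to 1.19). Tfam, which packages the genome and starts its transcription, had a ratio of 1.17 (1.08 to 1.27). Tfb2m, the initiation factor that works with the polymerase, had a ratio of 1.06 (0.965 to 1.16). Tefm, the elongation factor, was low at 2.096 and 2.62 FPKM, with a ratio of 0.799 (0.511 to 1.24). Of these 4 genes, Tfam alone had an interval that leaves out 1.

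Lrpprc and Slirp form a complex that binds and stabilises mitochondrial messenger RNAs. Lrpprc stood at 24.2 FPKM in Thy1.1- cells and 28.2 FPKM in Thy1.1+ cells, a ratio of 0.857 (0.784 to 0.938). Slirp stood at 3.29 and 4.301 FPKM, a ratio of 0.765 (0.543 to 1.07). Both ratios were thus below 1, with an interval that includes 1 for Slirp. The largest differences of the list were those of Mterf1a, a transcription termination factor, with a ratio of 1.399 (1.009 to 1.95), and Esrra. Esrra, a nuclear receptor listed among the regulators in the nucleus, had a ratio of 1.25 (1.18 to 1.33). The smallest were those of Twnk, the helicase of the mitochondrial genome, with a ratio of 0.753 (0.629 to 0.8998), and Slirp.

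The genes that translate the mitochondrial messengers differed little. Of 77 mitochondrial ribosomal protein genes, 76 were measured, of which 48 (63.2%) were above 0 and 28 below, beside 55.1% above 0 among all measured genes, with a median of 0.06 and 0 past 2-fold. Mrpl42 and Mrpl51, of the large subunit, had the largest ratios, at 1.47 (1.37 to 1.57) and 1.44 (1.29 to 1.598). Mrpl23, also of the large subunit, and Mrps10, of the small subunit, had the smallest, at 0.774 (0.731 to 0.818) and 0.774 (0.643 to 0.930).

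Of the 17 mitochondrial aminoacyl-tRNA synthetases, which charge the tRNAs, 6 (35.3%) were above 0 and 11 below, beside 55.1% above 0 among all measured genes. Their median was -0.09 and became 0.14 with the upper quartile. Lars2, the leucyl-tRNA synthetase, had the lowest log2 difference of the nuclear gene lists, -0.68. It stood at 5.14 FPKM in Thy1.1- cells and 8.84 FPKM in Thy1.1+ cells, a ratio of 0.582 (0.483 to 0.6997). Tars2, for threonine, had a ratio of 0.798 (0.767 to 0.830). Sars2, for serine, was among the higher ones, with a ratio of 1.24 (1.01 to 1.51). None of the 17 passed 2-fold.

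The upper quartile moved the median of all genes by 0.23, from 0.03 to 0.26, and the other 4 rescalings moved it by at most 0.03. Each rescaling multiplies 1 library by 1 factor, so it moves the members and the other genes together and is no separate evidence on their distance. That distance, the median of the mitochondrial protein genes minus that of all genes, was -0.27 with the deposited values.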

How the data were processed

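The authors deposited 1 table of FPKM values per Ensembl gene, with 1 column per library. The letter P in a column name was taken to mean Thy1.1+ cells and N to mean Thy1.1- cells. Libraries were made with a NEBNext Ultra kit from 3 µg of total RNA, per the labels' protocols. Bowtie2 2.2.3, TopHat2 2.0.12, HTSeq 0.6.1 and the mouse build mm9 are named in the submitters' processing notes; their settings: not given in the sources used here. Symbols, found for 40254 of 41592 IDs (96.8%), gene lengths and transcripts came from GENCODE M21, on GRCm38, so no genome coordinates are given.

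Mitochondrial genes have no introns, so reads were recovered as FPKM times annotated length times the library total. The smallest totals that make all values whole were 18536339 and 18600581, with deviations of at most 1e-10 reads. Reads of nuclear genes were the multiple of their smallest whole-number ratio that came nearest to an annotated length. Intervals are Clopper-Pearson intervals of a gene's share of reads in both libraries, and PCR copies are not separated. Calls needed a difference of 1 in log2(FPKM + 1), which understates changes of low genes, among genes averaging 1 FPKM or more. FPKM is no count, so no count model was used. Copies were sought with BLAST 2.17.0. All mitochondrial genes with reads were named, with the 2 largest and 2 smallest members of each list and 6 fixed genes, except 1 gene that is not reported here. Members and lists were chosen with earlier results of these data known. Scripts were tested on simulated data. Python 3.11.15, scipy 1.17.1 and pandas 2.3.3 were used.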

Additional observations from a re-analysis of the deposited data

How the results depend on the processing

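Each choice was varied alone: the pseudocount (0.1 or 5), the floor on the mean (none or 5 FPKM), the fold (1.5 or 4) and the scaling (5 others). Under each, 0 mitochondrial genes were higher by the fold rule, and 0 were lower except 1, mt-Co2, at 1.5-fold. Upper-quartile scaling moved the medians to 0.019 for mitochondrial protein genes, 0.42 for nuclear respiratory chain genes, 0.31 for mitochondrial ribosomal protein genes and 0.22 for mitochondrial gene expression genes. By its construction as 1 factor, 1.19, on all values of the Thy1.1- library, it turned the sign of 5 of the 16 mitochondrial genes with reads, mt-Rnr2, mt-Nd1, mt-Nd4, mt-Nd6 and mt-Cytb. It likewise turned the sign of the medians of the mitochondrial protein genes, the synthetases and the gene expression genes. The median of mitochondrial protein genes was -0.15 with a pseudocount of 5 and -0.18 without the 5 genes inside near-identical nuclear copies, an alternative chosen after seeing the data. The mitochondrial share of summed FPKM was 2.01% in Thy1.1- cells and 2.19% in Thy1.1+ cells. It was 2.07% and 2.25% over protein-coding genes alone, 1.52% and 1.63% of recovered reads, and 2.007% and 2.18% without the rRNA genes. Among single genes, 92 values under alternatives lay within the counting interval and 22 outside. No paired analysis was possible because each population has 1 library. Depth limits mt-Atp6, mt-Co3, mt-Nd3 and mt-Nd4l, each with under 40 reads per library.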

Other observations

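Gm29216, the chromosome 1 copy of the end of mt-Co1, was the copy with the largest difference, a choice made after its values were seen. It held 11 reads in Thy1.1- cells and 93 reads in Thy1.1+ cells, at 1.21 and 10.2 FPKM. It was 8.43-fold higher in Thy1.1+ cells (4.498 to 17.5), past the 2-fold rule, while mt-Co1 was nearly level. Gm29216 has 1 mismatch with mt-Co1 over 483 aligned bases, and mt-Co1 held 129527 and 128510 reads. Reads that miss the differing base cannot be told apart from those of mt-Co1, and their part in the difference was not tested. Gm28438, the copy of mt-Nd3, was 1.68-fold higher in Thy1.1+ cells (1.14 to 2.49), from 44 and 74 reads. The other copies had at most 11 reads per library, and every interval of theirs included 1 (Gm4076, with 0 reads in both, has none).

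If all reads of mt-Nd4 came from the 502 of its bases that lie outside the identical copy, its level would be 1816 FPKM in Thy1.1- cells and 1865 FPKM in Thy1.1+ cells. That would place it above mt-Nd1, at 1438 and 1589.6 FPKM, instead of below mt-Nd6. For mt-Co1, the 1062 bases outside Gm29216 would give 6580 and 6506 FPKM. This calculation was added after the data were seen, and where the reads lie within each gene was not tested. The ratios between the libraries do not depend on the length used.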
